A study of Homo sapiens with 12 samples.

Results

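HuH-28 is a line derived from intrahepatic cholangiocarcinoma (ICC), a cancer of the bile ducts inside the liver. The data described here are the 2 HuH-28 libraries made 48 h after transfection with a control siRNA, 2 of the 12 libraries in the series. They were chosen by their labels, and no library treated with siRNA against LKB1 was used. They were compared with the 2 control siRNA libraries of RBE and the 2 of SSP-25, the other ICC lines of the study, which received 45 pmol of siRNA per well in the same way. The 6 libraries thus share the transfection and the control siRNA, and the comparison asks how HuH-28 cells differ from both other lines before any attenuation of LKB1. HuH-28 cells were grown in MEM and the other lines in RPMI1640, both with 10% fetal bovine serum and penicillin-streptomycin. The line and its medium cannot be told apart here. A figure legend of the study numbers such duplicates by test, without saying whether the tests were separate transfections. The p-values thus measure the spread between these libraries, which may be technical.

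Bile duct cells, the cholangiocytes, are epithelial cells. They are held together by tight junctions of claudins, adherens junctions of E-cadherin and desmosomes, and are known for the keratins KRT7, KRT8, KRT18 and KRT19, the transcription factor SOX9 and the chloride channel CFTR. Carcinoma cells can lose part of this set and gain genes of mesenchymal cells, such as fibrillar collagens and N-cadherin, in a switch called epithelial-mesenchymal transition (EMT). The lists used below cover these groups and others known in ICC.

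Levels are given as signal, the normalized reads per kilobase of transcript that the authors deposited, so that genes can be compared on 1 scale. The read depth behind it is unknown. Library sums of signal ran from 9920000 to 11520000, and 15509 and 15808 genes were above 0 in the HuH-28 libraries. The HuH-28 duplicates differed more than those of the other lines. Where the mean signal reached 100 (9414 genes), the median absolute log2 difference between duplicates was 0.120 for HuH-28, 0.0598 for RBE and 0.0621 for SSP-25. The gene with the highest signal in HuH-28 was TMSB4X, which encodes an actin-binding peptide, with 151831 and 218191 in the duplicates. Pearson's r across 15602 genes, which are not independent replicates, was 0.993 between the HuH-28 duplicates, 0.760 to 0.764 with RBE and 0.830 to 0.831 with SSP-25. Between RBE and SSP-25 it was 0.832 to 0.835, so that by this measure HuH-28 was about as close to SSP-25 as RBE was.

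HuH-28 differed from each of the other lines in a large part of its transcriptome. A gene was called when the adjusted p of the limma fit was below 0.05 and the difference on the log2(signal + 0.5) scale was above 1. Against the mean of RBE and SSP-25, 3153 of 15602 genes tested were higher in HuH-28 (20.2%) and 2855 were lower (18.3%). Called against RBE and against SSP-25 in the same direction were 1986 higher genes (12.7%) and 1481 lower genes (9.49%), which are the shares to hold the lists below against. The HuH-28 libraries did not overlap the other 4 in any of these 3467 genes, which the thresholds of the call nearly ensure and which adds no support to it. No HuH-28 signal was measured for 155 of the lower genes, and 189 of the higher genes were at 0 in all 4 other libraries. The median log2 difference from the mean of the other lines was 0.00 over all genes tested. The calls against both lines dropped to 1439 higher and 859 lower when a larger constant of 10 was added to the signal. To be tested, a gene had to reach a signal of 1 in 2 libraries. A gene that did so only in HuH-28 was therefore not tested when 1 HuH-28 library was left out. The genes tested were 15140 without replicate 1 and 15134 without replicate 2 of HuH-28. Counts given below without a HuH-28 library rest in part on this filter.

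**Figure D1:**
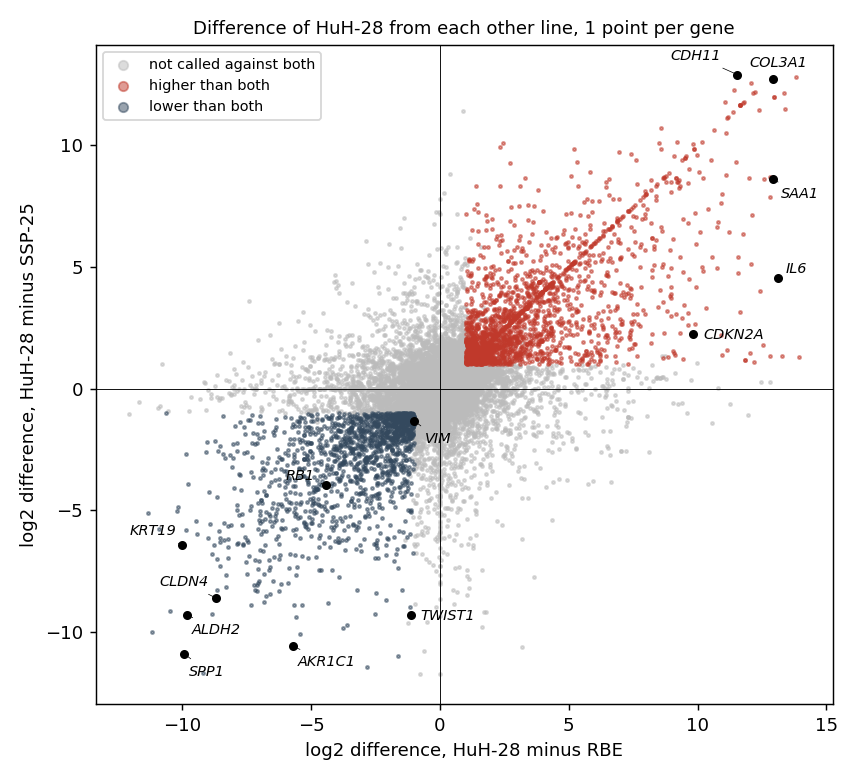
Difference of HuH-28 from RBE (horizontal axis) and from SSP-25 (vertical axis) on the log2(signal + 0.5) scale, 1 point per gene tested, colored by the call against both lines. Both axes use the same HuH-28 libraries, so the slope of the cloud has no meaning of its own, and named genes lie in the upper right (COL3A1, CDH11, SAA1, IL6, CDKN2A) and lower left (SPP1, ALDH2, CLDN4, KRT19, RB1) corners.

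The 15 higher genes with the largest difference were led by extracellular matrix, peptide hormone and germ cell genes. COL3A1 (chromosome 2, 188974320 to 189012746, GRCh38), which encodes the chain of the fibrillar collagen III, had a signal of 25131 and 27040.4 in HuH-28 libraries, 2.04 and 3.91 in those of RBE and 4.59 and 2.36 in those of SSP-25. Its log2 difference from the mean of the other lines was 12.83 ± 0.29 (SE) (limma adjusted p = 2.18e-07). NPPB, the gene of B-type natriuretic peptide, had 10474 and 10206 in the HuH-28 libraries, against 1.35 and 0 in those of RBE and 1.55 and 5.75 in those of SSP-25. In both genes the other lines were close to 0 and HuH-28 was among its own highest levels. CDH11, a cadherin of mesenchymal cells, was at 3829 and 3898 in HuH-28, at 1.05 and 0.581 in RBE and at 0 and 0 in SSP-25. HAPLN1, which links hyaluronan to proteoglycans, was at 2931 and 3181, 0.202 and 0.229 and 0 and 0 in the same order. MXRA5, a matrix protein gene, was at 7606 and 6836 in HuH-28 and below 1 in the other lines. The list also held CTAG2 and the pair CTAG1A and CTAG1B, whose rows are identical and which share reads, the serum amyloid genes SAA1, SAA2 and their readthrough SAA2-SAA4, the chloride channel gene CLIC3, the prostaglandin synthase gene PTGDS, the germ cell gene GTSF1 and ODZ2, a teneurin. These 15 genes lay between a signal of 2685 and 37931 in the HuH-28 libraries, and each was called against both lines, as the rule for naming them required.

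The 15 lower genes were led by secreted and junctional proteins of epithelia and by detoxifying enzymes. SPP1, which encodes osteopontin and marks bile duct cells, had 7.86 and 2.18 in HuH-28, against 4589.9 and 4642 for RBE and 8906 and 9308 for SSP-25. Its difference was -10.42 ± 0.40 (SE) (limma adjusted p = 1.62e-06). ALDH2, the mitochondrial aldehyde dehydrogenase, was at 3.45 and 1.92, 2860.3 and 2787 and 1933 and 1947 in the same order, and CLDN4, a tight junction claudin, at 3.93 and 4.4, 1940.2 and 1891 and 1835 and 1835. All 3 were close to 0 in HuH-28 and at or above 1835 in every other library. PRTFDC1 was at 0 in both HuH-28 libraries, at 1194 and 1109.7 in RBE and at 509 and 529 in SSP-25. The remaining genes were the desmosomal cadherin DSG2, the aldo-keto reductase AKR1B10, the tetraspanin CD9, the vesicle fusion protein VAMP8, the co-chaperone BAG2, HTATIP2, the microsomal glutathione transferase MGST1, RCN1, the urokinase gene PLAU, the kynureninase KYNU and MYEOV.

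**Figure D2:**
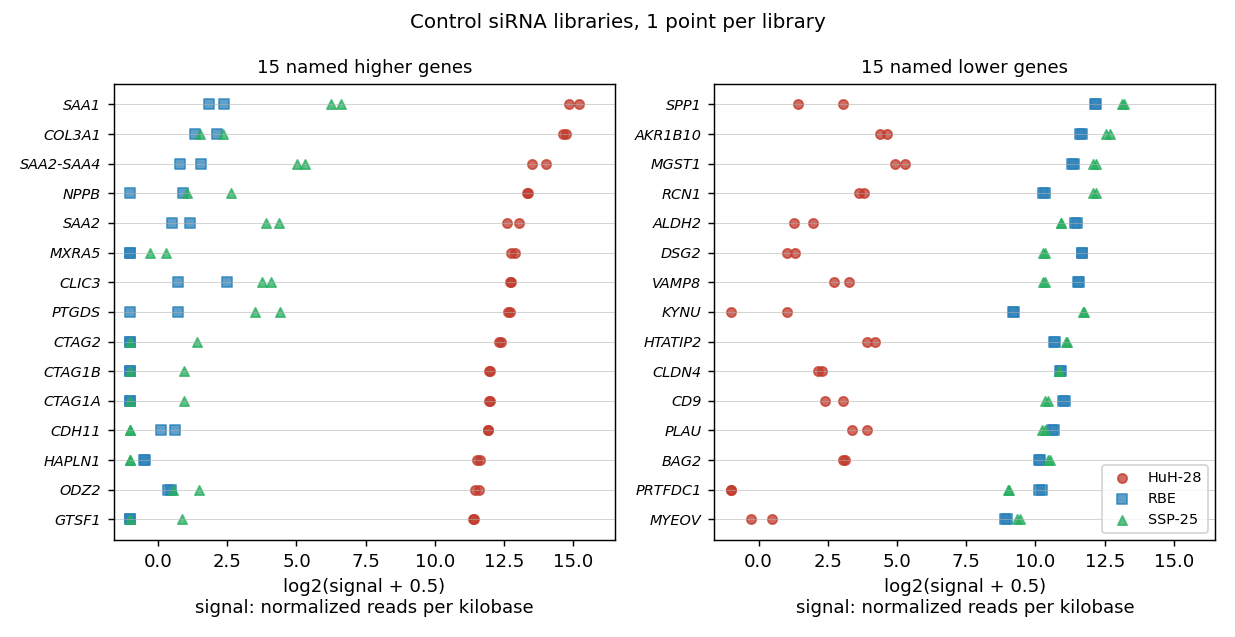
Log2(signal + 0.5) of the 15 named higher and 15 named lower genes, 1 point per control siRNA library and 2 per line. HuH-28 (circles) lies right of both other lines for every higher gene and left of them for every lower gene. The rule for naming these genes required this lack of overlap.

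The bile duct label was only partly borne by its markers. Of 24 biliary markers in the table, 22 were tested, 2 were higher than in both other lines, 9 were lower, and the median log2 difference from the mean was -2.51. The median was -3.59 against RBE but -0.39 against SSP-25. The keratins of simple epithelia were present. KRT7 was at 2467 and 2406 in HuH-28 libraries, 14978 and 14456 in those of RBE and 6048 and 5759 in those of SSP-25, and KRT8 at 2499 and 2861, 14529 and 12590.0 and 5972 and 6465, both lower than in the other lines. KRT18, the partner of KRT8, was at 4272 and 4878 and lay between RBE (7931 and 7705) and SSP-25 (1701 and 1802). KRT19 (chromosome 17, 41523617 to 41528308), by contrast, was at 9.86 and 11 in the HuH-28 libraries, against 11826 and 11079.8 in those of RBE and 964 and 916 in those of SSP-25, a difference of -8.23 ± 0.06 (SE) (limma adjusted p = 1.58e-08). SOX9 was at 208 and 188, next to 253 and 253 in SSP-25 and below 621 and 607 in RBE.

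Other defining markers were at or near 0 in HuH-28. EPCAM, an adhesion molecule of epithelial cells, was at 0.597 and 1.31, against 447 and 403 for RBE and 96.5 and 111 for SSP-25. CFTR, one of the 2 higher markers, reached 3.31 and 2.1 in HuH-28 and was no higher than 0.348 elsewhere, a level too low to set apart when the constant was 10. CD24, a glycoprotein of bile duct progenitors, was at 276 and 297, 703 and 642 and 591 and 586. Its call against SSP-25 was lost without replicate 1 of HuH-28, where the log2 difference was -0.99. The other higher marker was BICC1, an RNA-binding protein gene of ducts, at 696 and 601 in HuH-28 libraries, 309.5 and 279.7 in those of RBE and 159 and 164 in those of SSP-25. In all, 15 of the 24 markers had a signal below 10 in both HuH-28 libraries.

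Most hepatocyte genes were at or near 0 in HuH-28, and many of them in SSP-25 as well. Of 30 hepatocyte genes, 23 were tested, 2 were higher than in both lines and 1 was lower (median -1.54), and 26 had a signal below 10 in both HuH-28 libraries. The median rested on RBE, at -2.88 against RBE and 0 against SSP-25, and without replicate 1 or 2 of RBE, where 13 genes were tested, it turned to 1.27 and 1.03. ALB, the albumin gene, was at 0 and 0.342 in HuH-28, at 0 and 0.469 in RBE and at 0.934 and 1.34 in SSP-25, and APOB was at 0.144 and 0.0572 in HuH-28 and at 0 elsewhere. The higher members were the complement gene C3, at 9400.0 and 10822, and RBP4, at 9.8 and 8.75. Among 26 tested transcription factors of liver, bile duct and foregut, 4 were higher and 5 lower. GATA4 was at 354 and 279 in the HuH-28 libraries, against 48.4 and 46.2 in those of RBE and 0 and 0 in those of SSP-25, and GATA6 at 667 and 556, 40.5 and 35.4 and 213 and 224. The other higher factors were ONECUT2 and TBX3. HNF4A, the main hepatocyte nuclear receptor, was at 0.196 and 0.14, and FOXA2 at 0.786 and 1.52. HHEX was at 27.2 and 35.1 in HuH-28 and above 290 in all other libraries, and EHF, HNF4G and NR5A2 were lower too.

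**Figure D3:**
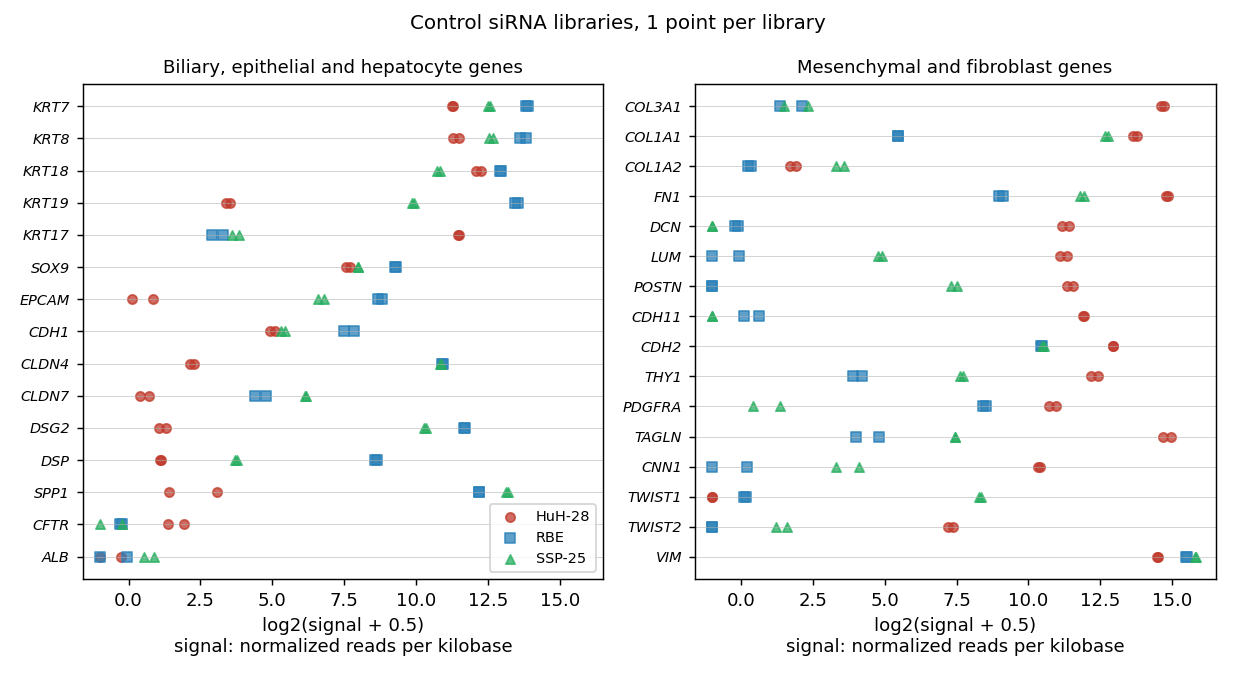
Log2(signal + 0.5) of bile duct, epithelial and hepatocyte genes (left) and mesenchymal and fibroblast genes (right), 1 point per control siRNA library. HuH-28 (circles) has signal for KRT7, KRT8, KRT18 and SOX9, is close to 0 for EPCAM, CLDN7 and DSG2, and lies at the right for COL3A1, FN1, DCN and TAGLN but not for COL1A2 or TWIST1.

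Genes of epithelial junctions were lower in HuH-28 far more often than higher. Of 47 tested, 1 was higher and 24 were lower than in both other lines, with a median of -2.69. DSG2 was at 1.99 and 1.56 in HuH-28, against 3277 and 3259 for RBE and 1304 and 1244 for SSP-25, and its desmosomal partner DSC2 at 0.39 and 0.136, 394 and 372 and 55.7 and 51.1. CLDN1, CLDN3, CLDN4, CLDN6 and CLDN7 were all lower than in both lines. The protease ST14 and its inhibitors SPINT1 and SPINT2, which control shedding at epithelial surfaces, were lower as well, SPINT2 at 40.2 and 41.3 against 3552 and 3407 for RBE and 127 and 139 for SSP-25. E-cadherin itself was low in 2 of the lines. CDH1 was at 30 and 33.3 in HuH-28, close to the 39 and 43.2 of SSP-25, and at 226 and 179 in RBE, and the difference of -0.37 ± 0.14 (SE) from SSP-25 did not pass (limma adjusted p = 0.0534). The splicing regulator ESRP1 and the transcription factor GRHL2 were at or below 0.808 in HuH-28 and RBE, and between 11.9 and 24.1 in SSP-25. The exception was PKP2, a desmosomal plaque protein also made in cells without desmosomes, at 427 and 349.7 in HuH-28 libraries, 98.7 and 98.1 in those of RBE and 57.3 and 58 in those of SSP-25. With a constant of 10 the count of lower members was 17.

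Keratins as a whole, KRT7, KRT8, KRT18 and KRT19 included, differed in both directions. Of 28 tested, 4 were higher and 10 lower (median -1.55). With a constant of 10 the count of lower members was 5. KRT17, a keratin of basal and injured epithelia, was at 2789.9 and 2889 in the HuH-28 libraries, against 6.88 and 9.33 in those of RBE and 13.8 and 11.5 in those of SSP-25, a difference of 8.07 ± 0.14 (SE) (limma adjusted p = 1.08e-07). KRT14 reached 108 and 76.9 and KRT16 64.2 and 53.7, while both were below 8 in the other lines. The squamous list held further higher members, CSTA, SERPINB3, SERPINB4, S100A8, S100A9 and TRIM29 beside KRT14, 7 of 15 tested, with 3 lower, but TP63 was at 0 and 0.502, SOX2 at 0 and 0.295 and KRT5 at 1.22 and 2.66. Without replicate 2 of HuH-28, 4 of 13 squamous genes were higher. SFN, the epithelial 14-3-3 protein gene, was at 6.22 and 5.49 in HuH-28, against 500.2 and 459.6 for RBE and 2113 and 2004 for SSP-25.

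Mesenchymal genes were more often higher than lower in HuH-28. Of 40 tested, 21 were higher than in both lines, 7 were lower, and the median was 3.04. FN1, the fibronectin gene, was at 28139 and 29763 in HuH-28 libraries, 554 and 498 in those of RBE and 3534 and 3937 in those of SSP-25. The small proteoglycans DCN and LUM were at 2279 and 2719 and 2174 and 2575, with DCN below 0.5 in every other library and LUM at most 29.5. CDH2, which encodes N-cadherin, was at 7829 and 7776 against 1419.8 and 1379 for RBE and 1414 and 1501 for SSP-25, a difference of 2.45 ± 0.05 (SE). The surface protein THY1, the protease MMP2, the receptor PDGFRA and the periostin gene POSTN were higher as well. Contractile genes belonged to this group. TAGLN was at 26089 and 31688 in the HuH-28 libraries, against 27.2 and 15.4 in those of RBE and 172 and 175 in those of SSP-25, CNN1 at 1276 and 1360.1 and ACTA2 at 1367 and 1731. CNN1 was below 17 elsewhere, and ACTA2 was at 23.9 and 25.7 in SSP-25 and 485 and 646 in RBE.

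Not every mesenchymal gene was higher in HuH-28. VIM, the intermediate filament gene used most as a mesenchymal marker, was at 23296 and 22601 in HuH-28, against 46837 and 45242 for RBE and 57948 and 57055 for SSP-25. This difference of -1.16 ± 0.10 (SE) was near the limit of 1, and the call against both lines was lost after quantile normalization, without replicate 2 of HuH-28 and without replicate 1 of RBE. TGFBI was at 808 and 871, 4672 and 4346 and 12488 and 12215, and TNC, LOXL2, S100A4 and COL6A3 were lower too. The transcription factors of EMT were split. TWIST1 was at 0 in both HuH-28 libraries, at 0.568 and 0.644 in RBE and at 307 and 326 in SSP-25, so that its call against RBE rested on signals below 1. TWIST2 was at 168 and 148 in HuH-28 and at most 2.57 elsewhere. ZEB1 was at 268 and 271, 259 and 260.1 and 252 and 249, a log2 difference of 0.08 ± 0.05 (SE) that changed sign after quantile normalization, while ZEB2, SNAI1 and SNAI2 were shared with SSP-25 and low in RBE. The chains of collagen I were uneven. COL1A1 was at 13992 and 12720.3 in HuH-28 and 6952 and 6538 in SSP-25, but COL1A2, whose product joins it in the collagen I trimer, was at 2.8 and 3.24 and 9.49 and 11.4.

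Because fibroblast genes were this high, markers of other cell types were examined beside them. Of 14 fibroblast and smooth muscle markers, 8 were higher and 1 lower (median 5.08), and their summed signal was 53341 and 55960 in HuH-28, above the 1077 and 1214 of RBE and the 7435 and 7003 of SSP-25. PDGFRB was nevertheless only at 28.7 and 26.9, near 25.5 and 26.1 in SSP-25, and DES was at 1.82 and 3.2. The endothelial markers CDH5, ERG, EMCN and VWF were all below 2 in HuH-28, although KDR and TEK, which encode receptors of endothelial growth factors, were higher at 273 and 258 and 38 and 43.5. Of 17 haematopoietic markers, 9 were tested, none was higher and ITGAM was lower, and 15 were below 10 in both HuH-28 libraries. Their summed signal was 1296 and 1715, against 978 and 972 for RBE and 1923 and 2007 for SSP-25, and CD68, which encodes a lysosomal membrane protein, made up most of it in HuH-28 with 1278 and 1683. The T cell markers CD3D and CD3E and the globin gene HBB were at 0 in both HuH-28 libraries, PTPRC, the gene of the common leukocyte antigen CD45, was at 1.37 and 2.82 and the monocyte marker CD14 at 6.77 and 10.3. Whether cells of another type contributed to these libraries was not tested.

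Matrix genes were more often higher than lower in HuH-28, and integrin genes differed in both directions. Of 34 matrix genes, 16 were higher and 7 lower (median 1.19). EFEMP1, a fibulin, was at 8018 and 10031 in HuH-28 libraries, 19.2 and 16.9 in those of RBE and 176 and 173 in those of SSP-25. COL12A1, COL8A1, BGN, VCAN, TIMP1 and TIMP3 were among the higher genes. LAMB3 and LAMA3, which encode laminin chains of epithelial basement membranes, were lower. LAMB3 was at 102 and 110.2 in the HuH-28 libraries, against 365 and 390.2 in those of RBE and 2718 and 2693 in those of SSP-25, and LAMA3 was at 22.8 and 24.9, 265 and 262 and 71 and 79.1. COL17A1 and the nidogen gene NID1 were lower with them. Of 24 integrin subunits, 6 were higher and 4 lower. The collagen-binding subunits ITGA1 and ITGA11 were at 3527 and 3388 and 2850.2 and 2816, against at most 151 and 111 in the other lines. ITGB4, a laminin receptor subunit of hemidesmosomes, was at 2.34 and 2.1 in HuH-28, against 2437 and 2385 for RBE and 38.4 and 43 for SSP-25. Of the adhesion plaque genes, TLN1 was at 1041 and 948, 249 and 243 and 558 and 548, and VCL at 2925 and 2744, 4667 and 4559 and 4284 and 4128. TLN1 was called against RBE only, and VCL against neither line.

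HuH-28 had high levels of inflammatory transcripts. Of 41 genes of chemokines, cytokines and acute inflammation tested, 22 were higher than in both lines and 5 were lower, with a median of 2.69. SAA1, an acute-phase apolipoprotein gene, was at 29667 and 37931 in HuH-28 libraries, 3.12 and 4.67 in those of RBE and 74.7 and 95.9 in those of SSP-25, a difference of 10.77 ± 0.18 (SE) (limma adjusted p = 9.53e-08). IL6, the cytokine that induces acute-phase genes in liver, was at 4199 and 4717 in HuH-28, at 0 in both RBE libraries and at 186 and 193 in SSP-25. ICAM1, a ligand for leukocyte integrins, was at 15937 and 17806, 5.39 and 1.95 and 115 and 121 in the same order. The complement genes C3 and CFB were at 9400.0 and 10822 and 1489 and 1913, and IL8 at 901 and 923 against 28.1 and 35.6 for RBE and 240.2 and 316 for SSP-25. SSP-25 lay between HuH-28 and RBE for all of these genes but CFB, where it was the lowest line (62.6 and 52.1 against 98.1 and 95.4 in RBE). The others included CXCL2, CCL5, CCL20, IL1B, CSF3, PTGS2 and TNFAIP3. TNF was at 1.21 and 0.49. The lower members were LIF, at 202 and 217 against 646 and 723 for RBE and 492 and 492 for SSP-25, TNFSF10, TNFSF15, TSLP and CXCL6.

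Many inflammatory genes carry binding sites for the transcription factor NF-kB next to their start sites. To show the letters, the RefSeq promoters (GRCh38.p14, 250 bases before to 50 after the start site) of the 22 higher genes were searched on both strands for GGGA, then any base, then TTTCC, a form of this site. A promoter was in the table for 15 of the 22, and 3 held the motif, against 0.558% of all 35116 promoters. The 22 were picked from a list of inflammatory genes by their calls, so these shares do not test for enrichment. List members that were lower or not called were not examined in the same way. Whether NF-kB acts in HuH-28 was not tested. The windows are printed 5′ to 3′ on the strand of the gene, all before the start site, with the motif in capitals.
IL6 (chr7:22727082-22727181, plus strand): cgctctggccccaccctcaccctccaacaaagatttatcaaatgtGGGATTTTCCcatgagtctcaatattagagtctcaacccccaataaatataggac
CXCL2 (chr4:74099219-74099318, minus strand): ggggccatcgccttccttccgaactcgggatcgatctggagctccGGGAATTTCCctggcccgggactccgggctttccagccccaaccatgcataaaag
TNFAIP3 (chr6:137867147-137867246, plus strand): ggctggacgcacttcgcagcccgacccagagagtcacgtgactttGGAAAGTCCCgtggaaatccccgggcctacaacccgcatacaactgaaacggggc
In IL6 the motif ended 64 bases before the start site, in CXCL2 69 and in TNFAIP3 58, where it lay on the opposite strand. A match describes the letters of the reference only. CXCL2 was at 569 and 758 in the HuH-28 libraries, against 10.3 and 12.8 in those of RBE and 69.8 and 124 in those of SSP-25, and TNFAIP3, an inhibitor of NF-kB signaling, at 398 and 376, 35 and 34.4 and 182 and 181.

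The cancer-testis antigens, germ cell proteins that tumors can make, were mostly higher in HuH-28. Of 33 tested, 25 were higher than in both lines and 1, TEX15, was lower, with a median of 5.58. CTAG2 was at 5122 and 5308 in HuH-28, against 0 and 0 for RBE and 2.15 and 0 for SSP-25, and CTAG1B, the gene of NY-ESO-1, at 4059 and 3991, 0 and 0 and 1.43 and 0. In MAGEA3 both HuH-28 (6968 and 8839) and SSP-25 (3144 and 3146) were high and RBE was at 0. MAGEC2 was at 1924 and 2402 in HuH-28 and 60.5 and 62.6 in SSP-25, and XAGE1A at 1516 and 1707 in HuH-28 and 0 elsewhere. PRAME went the other way against SSP-25, with 36.2 and 44.4 in HuH-28 libraries, 0.65 and 0 in those of RBE and 629.9 and 599.7 in those of SSP-25. Members of the MAGEA, XAGE, GAGE, SSX and CTAG families are near-identical copies on the X chromosome, so that the split of reads between them is uncertain. Several members passed the filter on low values only with both HuH-28 libraries, so that the share of those tested rests in part on the filter. With all 38 members of the table kept, 25 were higher, and without replicate 1 or replicate 2 of HuH-28 the counts were 17 and 14 of 25 tested.

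**Figure D4:**
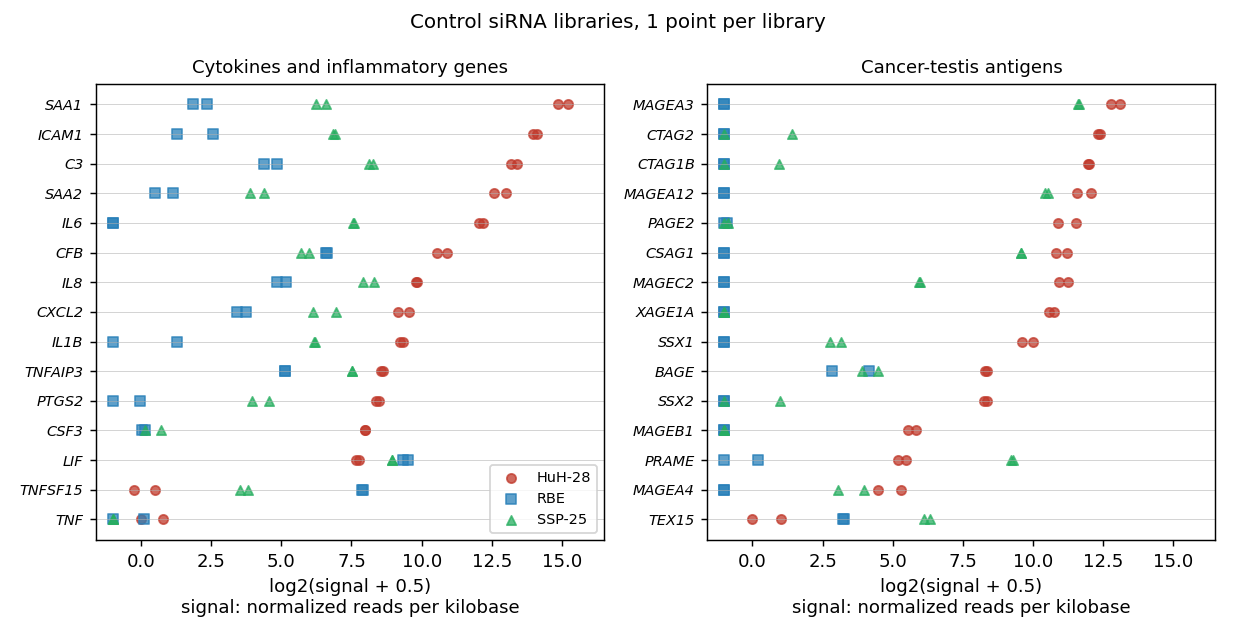
Log2(signal + 0.5) of inflammatory genes (left) and cancer-testis antigens (right), 1 point per control siRNA library. HuH-28 (circles) is the highest line for SAA1, ICAM1, C3, IL6, CTAG2 and XAGE1A, and is not for LIF, TNFSF15, PRAME and TEX15.

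Some antigen presentation genes were higher in HuH-28 too. Of 28 tested, 8 were higher than in both lines and none was lower, with a median of 1.21 from the mean, 2.58 from RBE and 0.69 from SSP-25. Without replicate 2 of HuH-28, 5 of 26 were higher. Of the class II genes, HLA-DRB1 was at 1765 and 2241 in the HuH-28 libraries, against 32.2 and 23.2 in those of RBE and 6.09 and 13.2 in those of SSP-25, and HLA-DQA1 at 52.4 and 69.5 in HuH-28 and 0 elsewhere. CIITA, the activator of class II genes, was at 1.75 and 1.12, and CD74, the invariant chain, at 24.8 and 25.3 in HuH-28, between the levels of RBE (82.1 and 100.2) and SSP-25 (3.75 and 3.58). HLA genes are near-identical and differ between people, so that their levels are uncertain. Among 40 interferon-stimulated genes, 6 were higher and 3 lower (median 0.29), shares near those of all genes tested. IFITM3 was at 10356 and 11106 against 2776 and 2523 for RBE and 2435 and 2455 for SSP-25, whereas OAS1 was at 3.08 and 4.42, 118 and 89.8 and 121 and 119.

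Enzymes of detoxification were more often lower in HuH-28 than higher. Of 47 genes of the NRF2 program, aldehyde dehydrogenases and drug metabolism, 2 were higher than in both lines and 14 were lower (median -1.11). AKR1C1, a ketosteroid reductase gene, was at 29.3 and 25.6 in HuH-28, against 1509 and 1434 for RBE and 42987 and 43227 for SSP-25, a difference of -8.16 ± 0.06 (SE). AKR1B10 was at 20.6 and 24.6, 3268 and 3092 and 6625 and 5978, and AKR1C2 and AKR1C3 followed. These reductases are close copies, and reads may be divided among them. ALDH3A1 was at 0 in both HuH-28 libraries, and the bile duct and liver exporter ABCC2 was at 5.59 and 6.67, against 474 and 475 for RBE and 1763 and 1691 for SSP-25. The list did not move as 1 block. NQO1, a standard NRF2 target, was at 4861 and 5372 in HuH-28, between RBE (1806 and 1843) and SSP-25 (11729 and 11836), and HMOX1 at 1363 and 1401 was level with SSP-25. UGT1A6 was at 2613 and 3041 in HuH-28 and 2402 and 2198 in SSP-25 but 9.49 and 8 in RBE. ALDH7A1 and ALDH1A2 were the higher members.

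**Figure D5:**
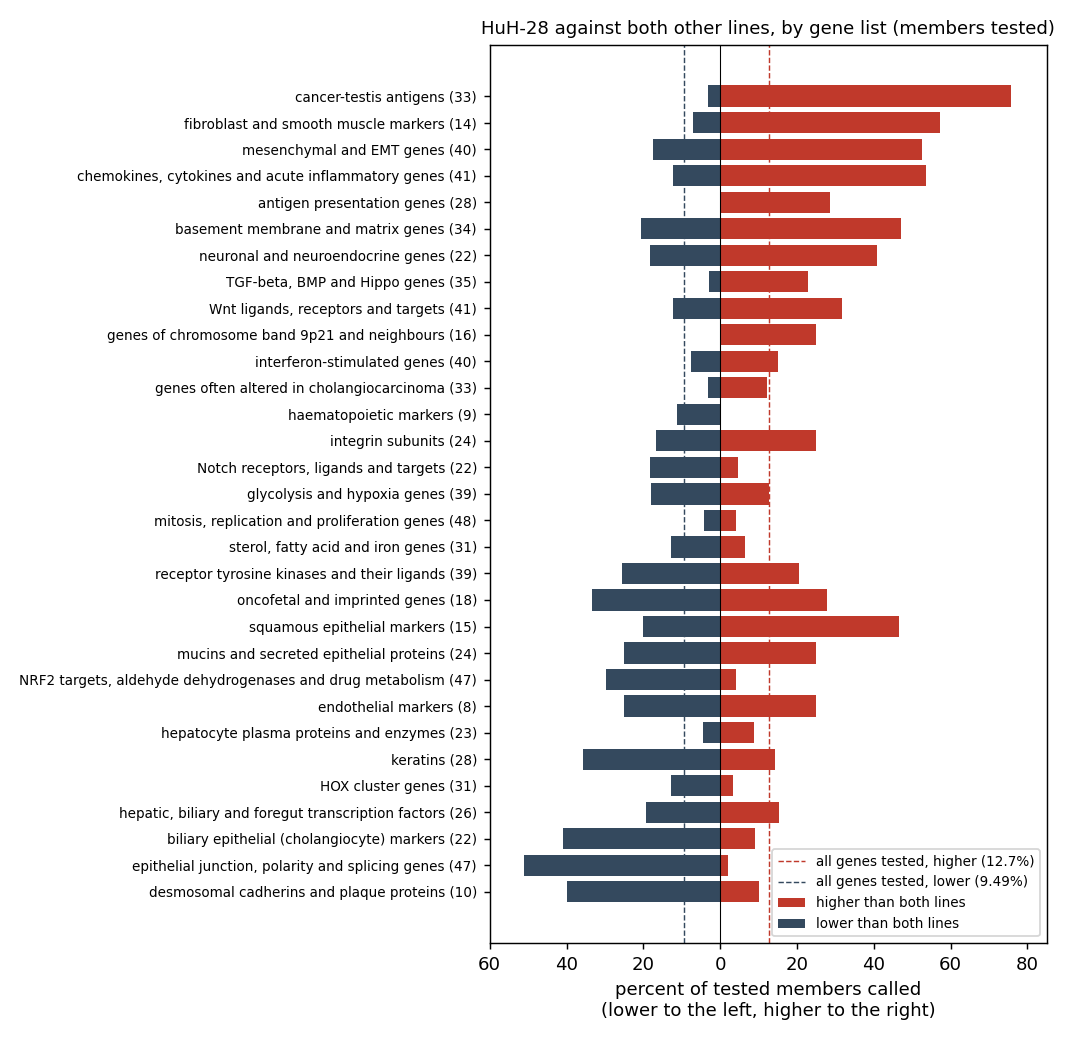
Share of the tested members of gene lists (number tested in brackets) called higher (right) or lower (left) in HuH-28 than in both other lines, ordered by the list's median difference. Dashed lines mark the shares over all genes tested, 12.7% higher and 9.49% lower, which the cancer-testis, fibroblast, mesenchymal and inflammatory lists exceed to the right and the junction, biliary and desmosome lists to the left.

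Growth control genes often altered in ICC were called higher at a share near the 12.7% of all genes tested. Of 33 tested, CDKN2A, CDKN2B, CCNE1 and TERT were higher and MYC was lower (4 and 1, median 0.28). CDKN2A (chromosome 9, 21967753 to 21995301), the gene of the cell cycle inhibitors p16 and p14ARF, was at 1528 and 1565 in HuH-28 libraries, 0.917 and 1.53 in those of RBE and 321 and 336 in those of SSP-25. Its neighbor CDKN2B was at 428 and 449, 0 and 0.798 and 158 and 160.3, and MTAP, next to both, at 217 and 223, 0 and 163 and 167. These 3 genes had signal in HuH-28 and SSP-25 and almost none in RBE. Of 16 tested genes of the band 9p21 and its neighbours, 4 were higher and none lower, and others of them, such as PLAA at 279 and 279.8, had signal in RBE. The call of CDKN2B against SSP-25 was lost in 6 of the alternatives, with adjusted p between 0.0531 and 0.212. RB1 (chromosome 13, 48303726 to 48599436), a member of the proliferation list whose product acts downstream of p16, was at 40.1 and 38.4 in the HuH-28 libraries, against 825 and 864 in those of RBE and 614 and 630.5 in those of SSP-25, a difference of -4.19 ± 0.05 (SE) (limma adjusted p = 5.04e-08). Of the 24 genes of the table within 2 Mb of RB1, itself included, it was the only one called lower against both lines. CYSLTR2 and ARL11 among them were not tested. Of all genes tested 9.49% were lower, so in so few genes this count says little about the neighbors. ITM2B, directly before it, was at 4398 and 4779, 3768 and 3473 and 1422 and 1510.0, and RCBTB2, after it, at 82.5 and 86.6, 34 and 44.3 and 43.2 and 57.5.

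The remaining called genes of the ICC group also act in growth. CCNE1, which encodes cyclin E1, was at 455 and 474 in HuH-28, against 213 and 224 for RBE and 72.8 and 69.3 for SSP-25, a call against RBE that was lost after quantile normalization (log2 difference 0.98). TERT, the catalytic telomerase subunit, was at 64.4 and 76.2, 3.57 and 3.67 and 13.9 and 11.8, and MYC at 654 and 624, 1684 and 1829.7 and 1828 and 1835. STK11, the gene of LKB1 that the study attenuated in other libraries, was at 698 and 600.4 in HuH-28 libraries, 485 and 429.8 in those of RBE and 464 and 459 in those of SSP-25. Its difference of 0.50 ± 0.08 (SE) (limma adjusted p = 0.00118) was below the limit of 1, and the HuH-28 libraries did not overlap the others. Few proliferation genes were called. Of 48 tested, CCNE1 and CDKN1C were higher and KIF11 and RB1 lower (2 and 2), with a median of -0.30, and MKI67 was at 671 and 571, 1556 and 1454 and 838 and 913. CDKN1A, which encodes the cell cycle inhibitor p21, was at 883 and 880.2 in HuH-28 and 505 and 457 in SSP-25 and at 4504 and 4328 in RBE.

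Growth factor genes differed in both directions. Of 39 receptor tyrosine kinases and ligands, 8 were higher and 10 lower (median -0.55), and without replicate 1 of HuH-28 these were 5 and 11 of 37. The EGFR ligands AREG, BTC and EGF were lower, AREG at 2.47 and 1.27 in the HuH-28 libraries, against 2784 and 2693 in those of RBE and 75.1 and 73.9 in those of SSP-25, while EGFR itself was at 449.5 and 327, 602 and 603 and 790.1 and 800.2. DDR2, a collagen receptor, was at 305 and 283 and at most 8.78 elsewhere, and ROS1, a kinase gene rearranged in some ICC, at 279.5 and 243, 0 and 97.4 and 83.5. Of 35 TGF-beta, BMP and Hippo genes, 8 were higher and 1 lower (median 1.00). The ligand gene INHBA, of activin A, was at 3056 and 3164 in HuH-28, against 4.85 and 7.26 for RBE and 227 and 215 for SSP-25, its antagonist FST at 2237 and 2398 and at most 8.09 elsewhere, and the receptor gene TGFBR1 at 1542 and 1553, 117 and 115 and 105 and 116. SMAD3, which carries this signal, was lower at 265 and 251, 2648 and 2665 and 1434 and 1427.

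In the Wnt list 13 of 41 were higher and 5 lower (median 0.66). WNT5A and its receptor ROR2, of the branch without beta-catenin, were at 636 and 575 and 578 and 512 in HuH-28, with ROR2 at 0 in RBE and 7.03 and 4.69 in SSP-25. AXIN2, a target of beta-catenin, was at 106 and 103, 18.8 and 17.3 and 26.7 and 25.9, and LGR5 at 50.2 and 44.5 and below 1 elsewhere. WNT7B, DKK3 and LEF1 were lower. Without replicate 1 or replicate 2 of HuH-28, 8 and 7 of 37 were higher, and with a mean signal of at least 20 required 7 of 26 were. CTNNB1, the beta-catenin gene, was at 4623 and 4496, 3273 and 3190.2 and 2520.0 and 2527, below the limit of 1 against both. Of 22 Notch genes, HES4 was the higher one, and HEY1, HEY2, JAG2 and MAML3 were lower. NOTCH2 was at 1356 and 1232, 814 and 790.2 and 1225 and 1341.

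Genes of the response to low oxygen did not move together. Of 39 tested, 5 were higher and 7 lower (median -0.20). HIF1A was at 4078 and 3855 in HuH-28 libraries, 1192 and 1218 in those of RBE and 737 and 839 in those of SSP-25, a difference of 2.03 ± 0.06 (SE) (limma adjusted p = 7.28e-07), and EPAS1, which encodes HIF-2 alpha, was at 5063 and 4434, 723 and 705 and 362 and 370.4. The target CA9 was nearly silent, at 1.31 and 2.18, 1.94 and 3.38 and 0 and 1.05. ADM, HK2 and SLC2A3 were higher, and the glycolytic genes PFKM, PFKP and TPI1 lower. Among 31 sterol, fatty acid and iron genes, the fatty acid receptor CD36 was at 547 and 636 in HuH-28 and below 2 elsewhere, and the fatty acid binding protein FABP5 at 242 and 263, 6854 and 6932 and 4456 and 4393. PLIN2 was the other higher member, and SQLE, PPARG and SLC40A1 were lower.

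HOX genes were seldom higher than in both lines, and were lower about as often as all genes tested (12.7% higher and 9.49% lower). Of 31 HOX genes tested, HOXB2 was the only one higher than in both lines, at 315 and 351 in the HuH-28 libraries, against 0.591 and 0 in those of RBE and 35.4 and 36.5 in those of SSP-25, and 4 were lower. All HOXD genes but HOXD3 and HOXD4 were at 0 in HuH-28. HOXD10 was at 0 in both RBE libraries too, and at 133 and 129.9 in SSP-25. Of 18 oncofetal and imprinted genes, 5 were higher and 6 lower, and without replicate 2 of HuH-28 these were 3 and 6 of 17. LIN28B, which blocks maturation of the let-7 miRNAs, was at 427 and 409 in HuH-28 and below 1 in the other lines. HMGA1 was at 1010.0 and 819 in HuH-28, against 16427 and 15849 for RBE and 9580.2 and 10631 for SSP-25, and HMGA2 at 391 and 408, 3938 and 4507 and 909.9 and 1084, both of them chromatin proteins. IGF2BP3 and MEST were lower too. Of 22 neuronal and neuroendocrine genes, 9 were higher and 4 lower (median 1.06). This median rested in part on low signals. With a mean signal of at least 20 required, 5 of 13 were higher and 3 lower (median 0.21), and with a constant of 10 the median was 0.25. SCG2, a granin of secretory vesicles, was at 1399.7 and 1580.5 in HuH-28 libraries, 13.4 and 14.7 in those of RBE and 88.6 and 101 in those of SSP-25, while the neuroendocrine marker CHGA stayed at 0.501 and 2.02. Of 24 mucins and secreted epithelial proteins, 6 were higher and 6 lower. MUC1 was at 218 and 191, 33.2 and 39.3 and 27.2 and 31.8, and AGR2 at 0, 69.7 and 57.9 and 18.2 and 17.3.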

How the data were processed

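Total RNA was sequenced after TruSeq library preparation, and only the 6 control siRNA libraries of the series were used, 2 per line, grouped by their labels. The authors deposited 1 table of normalized reads per kilobase for each gene symbol, used here as a signal. Per the labels' processing notes TopHat 1.2.0, edgeR and the build hg19 were used. The study's methods name other alignment software and an older build, and which of them made the table is not given. The table holds neither counts nor coordinates, so the depth is unknown and no count model was run. Values below 0.03 were taken as 0, a limit set after the values were seen, which lie apart above it. Of 18815 rows, 23 repeats were left out, and 28 rows with a date for a symbol and 6 whose symbol was used for different values were fitted but not named.

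Log2(signal + 0.5) was fitted for the 15602 genes that reached a signal of 1 in 2 or more libraries with limma 3.58.1 (R 4.3.3), with 3 line means, an intensity trend and Benjamini-Hochberg adjustment over all genes tested. With 3 residual degrees of freedom the p-values lean on the spread pooled across genes. An exact permutation test of 2 against 4 libraries could not go below a two-sided p of 0.067. Tested on simulated data for this comparison (15602 genes), 93% of genes moved by 2.5 and 74% of genes moved by 1.5 on the log2 scale were called against both lines, and 1 of 15402 unchanged genes was. In the simulation RBE and SSP-25 had the same mean for each gene, and all lines had the same spread. In the data RBE and SSP-25 differ and the HuH-28 duplicates spread more, so these rates need not hold there.

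Named were the 15 higher and 15 lower genes with the largest smaller difference on log2(signal + 10), called against both lines without overlap and with a signal of at least 100 on the higher side. Key markers of 32 lists, up to 4 called members of each and genes the study names were added, and further members were named after their values were seen. The lists and HuH-28 as the subject were chosen with earlier results of these data known. Gene positions are those of GENCODE v29, and promoters those of RefSeq. Sex-linked marker genes and some listed genes are not reported here. Alternatives changed the constant, filter, scaling, thresholds, replicate block, library weights and the libraries used.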

Additional observations from a re-analysis of the deposited data

How the results depend on the processing

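No gene called against both lines was called in the opposite direction under any of the 20 alternatives. The alternatives that moved a count by more than 1.5 times were these. With a constant of 10, 2298 genes were called against both lines (859 lower), and 1828 were lower than the mean. With a mean signal of at least 20 required, fewer genes were tested (12138), and 3907 were called against the mean (1738 lower) and 1310 were higher than both. With a limit of 2 on the log2 difference, 3047 were called against the mean (1625 higher, 1422 lower) and 1731 against both (1016 higher, 715 lower). With each library left out in turn, calls against the mean ranged from 5388 to 5771 (2663 to 3157 higher, 2517 to 2810 lower). Calls against both ranged from 2957 to 3401 (1522 to 1960 higher, 1435 to 1493 lower). The totals and the higher calls were lowest without a HuH-28 library. The calls lower than the mean were fewest (2517) without replicate 1 of RBE and most (2810) without replicate 2 of HuH-28. Those lower than both were fewest (1435) without replicate 1 of HuH-28 and most (1493) without its replicate 2. In the fits without a HuH-28 library, genes that reached a signal of 1 only in HuH-28 were not tested. After quantile normalization 48.4% of calls against the mean were higher, against 52.5% as reported.

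Deviations of same-numbered libraries correlated at 0.0175, -0.0154 and 0.0283 across genes, so that little shared shift by replicate number was seen. Whether same-numbered libraries were handled together is not given. With the replicate block 3480 genes were called against both lines and 6017 against the mean. Of 167 named genes called against both lines, 20 lost the call in at least 1 alternative, mostly at low signals. Beside those given above these included CEACAM6, CLDN5, DSP, HOXA6, HOXB13, ITGAM, JAG2, LEF1, MAGEA4, NLRC5, PECAM1, RBP4 and SYP. In named genes with differences near 0 or very low signals the sign turned. With a constant of 10 the log2 difference from the mean was -0.054 for PTPRC, -0.082 for CD74, -0.17 for HOXA13, -0.015 for CIITA and -0.68 for PRAME. After quantile normalization it was -0.043 for TFRC, -0.029 for ZEB1, -0.0064 for NOTCH1 and -0.0043 for FGFR1. With each library left out it ranged from -0.11 to 0.24 for TGFB1, -1.69 to 0.11 for IFI27, -0.087 to 0.39 for CIITA, -0.19 to 0.64 for PTPRC and -2.02 to 0.49 for KRT5. The cause was not tested. With weights by line, or with the smallest values as deposited, both added after the data were seen, 3384 and 3469 genes were called against both lines.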

Other observations

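The higher and lower genes of HuH-28 were spread unevenly over the chromosomes. Among 8792 genes with a position and a mean signal of at least 100, 759 were higher and 537 lower than in both other lines. On chromosome 20, 54 of 259 genes were higher and 4 lower, with median log2 differences of 0.73 from RBE and 0.71 from SSP-25. Chromosome 5 had 71 higher and 10 lower genes of 432, and chromosome 19 had 88 higher and 13 lower of 535. Chromosome 18 had 26 higher and 7 lower of 123, with medians of 0.42 from RBE and 1.18 from SSP-25. Chromosome 13 had 28 higher and 5 lower of 152, with medians of -0.03 and 0.34 in the same order. Chromosomes 7, 10 and 12 leaned the other way, with 12 higher and 42 lower of 408, 19 and 47 of 338, and 18 and 52 of 484. Over all of these genes the median differences were 0.05 from RBE and -0.04 from SSP-25. The comparisons with RBE and SSP-25 share the HuH-28 libraries, neighboring genes are not independent, and copy number was not measured in these libraries. By fluorescence in situ hybridization, the study found trisomy of LKB1 in RBE and a diploid state in the other lines. STK11, the gene of LKB1, lies on chromosome 19, where the median differences of HuH-28 were 0.57 from RBE and 0.52 from SSP-25. Whether copy number bears on the differences by chromosome was not tested.

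Some genes that no list held were higher in HuH-28 than in both other lines, chosen after their values were seen. PDPN, which encodes podoplanin, a surface protein of lymphatic, mesothelial and some stromal cells, was at 506 and 502 in HuH-28, against 0 and 0 for RBE and 0 and 0.338 for SSP-25. MYL9, a regulatory myosin light chain, was at 28233 and 28366, 999.6 and 1035 and 1231 and 954. Of the mesothelial genes looked at with PDPN, CALB2 was at 1198 and 1309.7 in HuH-28 and higher in RBE (5162 and 5082), WT1 was at 8.61 and 4.84, MSLN at 2.32 and 1.7 and UPK3B at 17.4 and 21.2.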
